A study of Peromyscus maniculatus with 16 samples.

Results

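The genes described are 10 genes of recruited neutrophils and monocytes, chosen by their symbols: S100a8, S100a9, Il1b, Ccl6, Cxcl16, Syk, Itgam, Itgb2, Csf3r and Spi1. Of these 10, 9 were found among the 16910 genes of the count table, and Itgam was not matched. All 9 were among the 12639 genes with at least 0.5 CPM (read counts scaled to the library's total) in at least 1 animal, and their counts ran from 4 for Csf3r in its lowest library to 647 for Il1b in its highest. RNA had been sequenced from the livers of 16 outbred deer mice (P. maniculatus) that were 10 months old when killed. The 6 control animals (C) were males on regular diet, and the other 10 animals were given high fat diet (HFD) for 28 weeks. By liver histology, 5 HFD animals had no steatosis (NS, all males) and 5 had steatosis (S, 3 females and 2 males).

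Of the 16 animals, 13 came from the BW stock (P. maniculatus bairdii) and 3 from the SM2 stock (P. maniculatus sonoriensis), both closed colonies derived from wild-caught founders. The SM2 animals were spread over the groups, with 10876 in C, 10865 in NS and 10880 among the S males. The females were S animals 35955, 35982 and 35990, so that S vs C was also in part a comparison of sexes. Total counts lay between 4640733 and 11349971 per animal. Levels are given as CPM normalised by TMM, a scaling that sets most genes of the libraries level with each other. They are not divided by gene length and are compared between animals, not between genes.

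Neutrophils and monocytes are made in the bone marrow and enter the liver from the blood, where they join the resident macrophages, the Kupffer cells. Neutrophils store large amounts of calprotectin, the pair of calcium-binding proteins encoded by S100a8 and S100a9, and depend on the receptor encoded by Csf3r for their production. Il1b encodes a cytokine of activated myeloid cells, Ccl6 and Cxcl16 encode chemokines that are also made by macrophages, Itgb2 encodes the β2 integrin chain that holds leukocytes to vessel walls, Syk encodes a kinase that acts downstream of integrins and Fc receptors, and Spi1 encodes PU.1, the transcription factor that specifies myeloid cells.

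The label of the genes was first set beside markers of mature and immature neutrophils. Of 26 neutrophil granule and surface genes in the table, 7 had 3 counts or fewer in every animal, and these were Elane, Ctsg and Mmp8 (granule proteases), Cxcr1 (a chemokine receptor), Mcemp1, Cebpe and Gfi1 (the last 2 transcription factors of granulocyte development). Among monocyte genes, Fcgr1 and Vcan were at the same floor. The table held 26 of 30 listed neutrophil genes, without Mpo, Retnlg, Fpr2 and Stfa2, and 17 of 26 listed monocyte genes. Of these, 18 neutrophil and 16 monocyte genes passed the filter on low values. The pan-leukocyte gene Ptprc (CD45) was counted in every library, with 30 to 352 counts. Most of the 9 genes are also expressed by macrophages in general. A neutrophil or monocyte origin of the reads could not be checked from these markers for any of the 9. In whole liver, fewer cells of a type and less RNA per cell cannot be told apart.

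S100a8 and S100a9 were lower in steatotic livers than in livers of control animals. In C, the S100a8 level was 8.76 CPM in the lowest animal, 13.04 CPM at the median and 30.8 CPM in the highest. In S it was 4.39 CPM in animal 10880, 1.83 CPM in 35955, 4.08 CPM in 35982, 6.10 CPM in 35990 and 3.57 CPM in 36016. Every S animal thus lay below every C animal, both S males included. In NS the level was 3.28 CPM in animal 10865, 21.0 CPM in 35930, 6.51 CPM in 35937, 20.3 CPM in 35963 and 3.46 CPM in 35987. The NS animals were split, with 2 inside the upper range of C, and 3 below every C animal and close to the range of S.

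For S100a9, C animals had 15.8 CPM at the lowest, 25.6 CPM at the median and 42.9 CPM at the highest. The S animals had 6.94 CPM (10880), 2.35 CPM (35955), 9.45 CPM (35982), 13.1 CPM (35990) and 7.88 CPM (36016). The groups C and S again did not overlap. The NS animals had 6.43 CPM (10865), 31.8 CPM (35930), 16.3 CPM (35937), 32.01 CPM (35963) and 5.13 CPM (35987), so that 35930 and 35963 were once more high and 10865 and 35987 low.

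**Figure D1:**
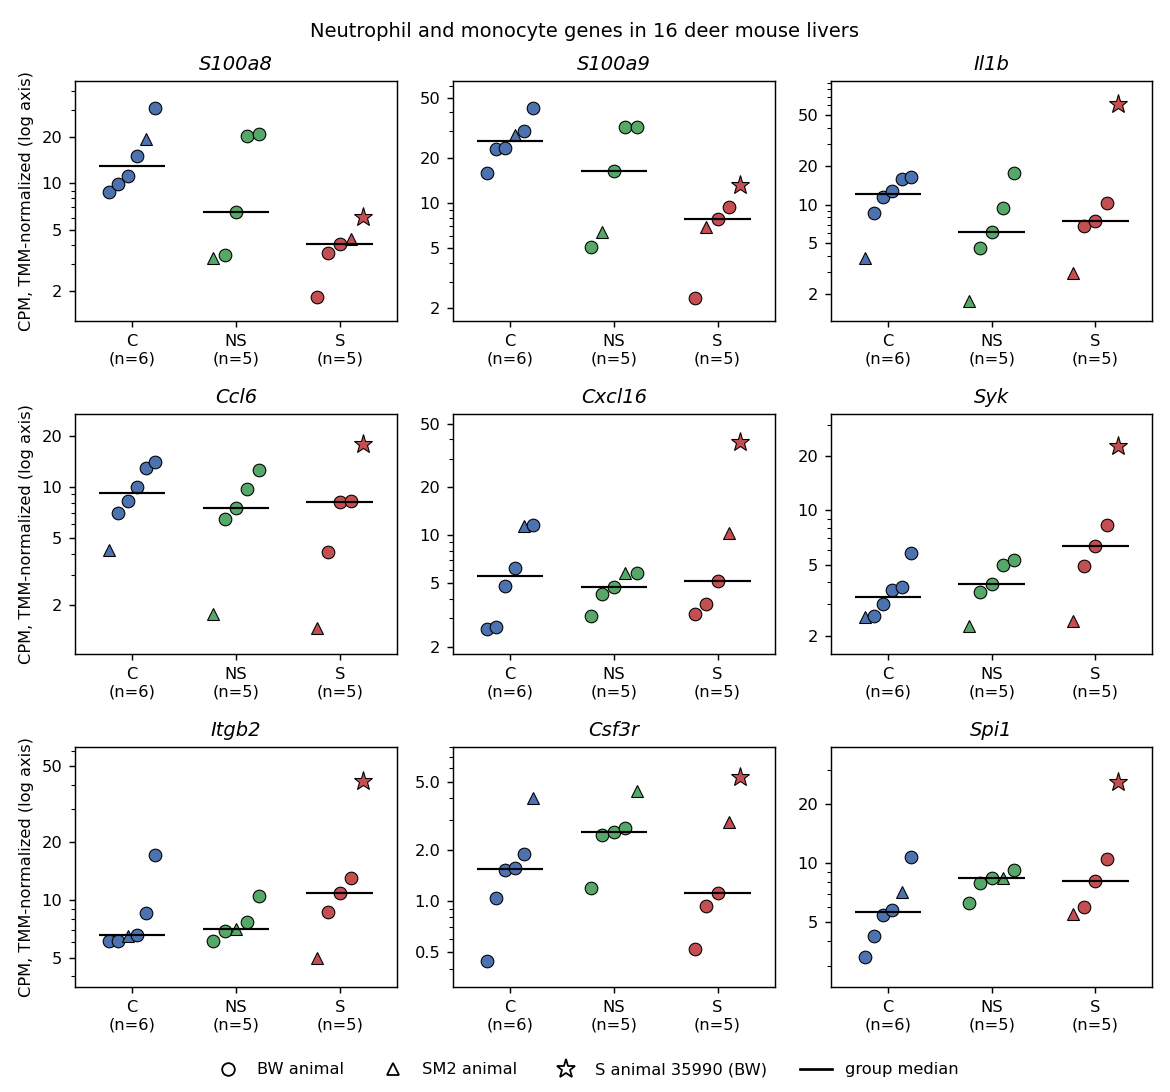
TMM-normalised CPM (log axis) of the 9 genes in each of the 16 animals, by group, with lines at the group medians, triangles for SM2 animals and a star for S animal 35990. S100a8 and S100a9 of S lie below all of C, the star is highest of 16 in the other 7 genes, and the triangles are lowest in each group for Il1b, Ccl6 and Syk.

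By edgeR's quasi-likelihood test with Benjamini-Hochberg adjustment over all genes tested, a gene was called when the adjusted p was under 0.1 and the levels differed at least 2-fold. In S vs C, 3 of the 9 genes were called, beside 4.06% of all genes tested, with 1 higher and 2 lower, beside 3.09% and 0.965% of all genes. S100a8 fell by 1.98 on the log2 scale (SE 0.52, adjusted p = 0.0452), and S100a9 fell by 1.77 (SE 0.48, adjusted p = 0.0497). These were 3.95-fold and 3.42-fold lower levels in S. Of the 9 genes, only these 2 had all S animals below all C animals, which was seen in 2.33% of all genes tested.

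The fall of both genes was called with each of the 11 C and S animals left out in turn, with log2 fold changes of -2.21 to -1.68 for S100a8 and -2.05 to -1.53 for S100a9. With BW animals alone the adjusted p was 0.0583 for S100a8 and 0.0667 for S100a9. With sex as a covariate the log2 fold changes were -1.98 and -1.87, with adjusted p of 0.144 and 0.138. With males alone the adjusted p was 0.160 and 0.122, so that neither gene was called in either fit. As all females are in S, both fits take S from the males 10880 (SM2) and 36016 alone and are not separate checks. In the comparison of counts divided by those of Tbp, a housekeeping transcription factor, the log2 ratio in S was lower by a difference of -1.61 for S100a8 (2-sided exact permutation test, p = 0.00216, the smallest that 462 splits allow) and -1.56 for S100a9 (p = 0.00433, exact). These are 2 of 27 such tests, which take no account of sex, and their p is not adjusted. Syk (1.32, p = 0.0368, exact) and Spi1 (1.06, p = 0.0325, exact) were higher in S vs C, and no other test was under 0.05. Tbp itself differed between the groups, with 4.69 to 6.46 CPM in S (25 to 74 counts) and 6.65 to 7.77 CPM in C (45 to 79 counts).

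The S100a8 and S100a9 genes moved together from animal to animal. Their counts kept a ratio of S100a9 to S100a8 between 1.29 and 2.704, with 1.88 ± 0.60 (SD, n = 6) in C, 1.81 ± 0.43 (SD, n = 5) in NS and 1.91 ± 0.45 (SD, n = 5) in S. By contrast, the sum of both counts per count of Ptprc ran from 2.89 to 9.13 in C, 0.906 to 7.88 in NS and 0.318 to 1.66 in S, a ratio chosen after the values were seen and given as a description. The S animals lay below every C animal in this ratio too, while their Ptprc level was 6.82 to 33.6 CPM, against 4.16 to 14.2 CPM in C.

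Syk, the kinase, was the gene called higher in S vs C. In C its level was 2.56 CPM in the lowest animal, 3.32 CPM at the median and 5.78 CPM in the highest. In S it was 2.44 CPM in animal 10880, 4.88 CPM in 35955, 6.30 CPM in 35982, 22.9 CPM in 35990 and 8.26 CPM in 36016. The groups overlapped, the SM2 animal of S being below every C animal and 35990 far above the rest. The log2 fold change was 1.34 (SE 0.44, adjusted p = 0.0829), and without animal 35990 it was 0.61 (adjusted p = 0.293). It was 0.57 both with sex as a covariate (adjusted p = 0.579) and in males alone (adjusted p = 0.493), and was called in neither fit. Both of these fits take S from 10880 and 36016 alone. The call was lost in 8 of 11 fits that left out 1 animal each, which were those without 35982, 35990 or 36016 of S and those without 10876, 35972, 35975, 36001 or 36007 of C.

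Itgb2 and Spi1 were not called with all animals in the fit. The Itgb2 level in C was 6.07 CPM at the lowest, 6.52 CPM at the median and 17.2 CPM in animal 35998. In S it was 4.99 CPM (10880), 13.1 CPM (35955), 10.9 CPM (35982), 42.1 CPM (35990) and 8.63 CPM (36016). The ranges of C and S overlapped through 10880 and 35998. The log2 fold change was 0.93 (95% interval 0.02 to 1.83, adjusted p = 0.201), and 0.16 (-0.53 to 0.84) without 35990.

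For Spi1, C animals had 3.33 CPM at the lowest, 5.61 CPM at the median and 10.8 CPM at the highest. S animals had 5.48 CPM (10880), 10.6 CPM (35955), 8.16 CPM (35982), 26.0 CPM (35990) and 6.01 CPM (36016). All S animals but 35990 were within the range of C. The log2 fold change was 0.90 (0.12 to 1.67, adjusted p = 0.154), and 0.31 (-0.30 to 0.93) without 35990. In BW animals alone it was 1.12 (adjusted p = 0.0991) and Spi1 was called, whereas with sex as a covariate or in males alone it was near 0, at -0.09.

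Il1b, the cytokine gene, was not called and was spread widely. In C it was 3.84 CPM in the lowest animal, 12.1 CPM at the median and 16.4 CPM in the highest. In S it was 2.92 CPM (10880), 6.80 CPM (35955), 10.4 CPM (35982), 61.7 CPM (35990) and 7.51 CPM (36016). The SM2 animal was lowest in both groups and 35990 was highest of all. The log2 fold change in S vs C was 0.65 (-0.72 to 2.03, adjusted p = 0.571) with 35990 and -0.74 (-1.84 to 0.36, adjusted p = 0.405) without it, so that its sign rested on this animal.

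The chemokine genes Ccl6 and Cxcl16 were not called in S vs C. Ccl6 had 4.23 to 14.01 CPM in C, and 1.46 CPM (10880), 4.10 CPM (35955), 8.16 CPM (35982), 17.9 CPM (35990) and 8.26 CPM (36016) in S, with a log2 fold change of -0.23 (-1.30 to 0.84), and -0.80 (-1.86 to 0.27) without 35990. Cxcl16, a membrane-bound chemokine, had 2.56 to 11.6 CPM in C, and 10.2 CPM (10880), 5.14 CPM (35955), 3.71 CPM (35982), 38.2 CPM (35990) and 3.19 CPM (36016) in S. Neither gene separated the groups. The log2 fold change of Cxcl16 was 0.91 (-0.29 to 2.11), and -0.21 (-1.16 to 0.73) without 35990.

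Csf3r, the receptor of granulocyte colony-stimulating factor, had few counts, with 4 to 56 per library. Its level was 0.444 to 4.03 CPM in C, 1.18 to 4.41 CPM in NS and 0.523 to 5.34 CPM in S. The groups overlapped, and the log2 fold change in S vs C was 0.33 (-0.89 to 1.55, adjusted p = 0.768). Without 35990 it was -0.34 (-1.56 to 0.87, adjusted p = 0.757), so that its sign rested on this animal too.

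**Figure D2:**
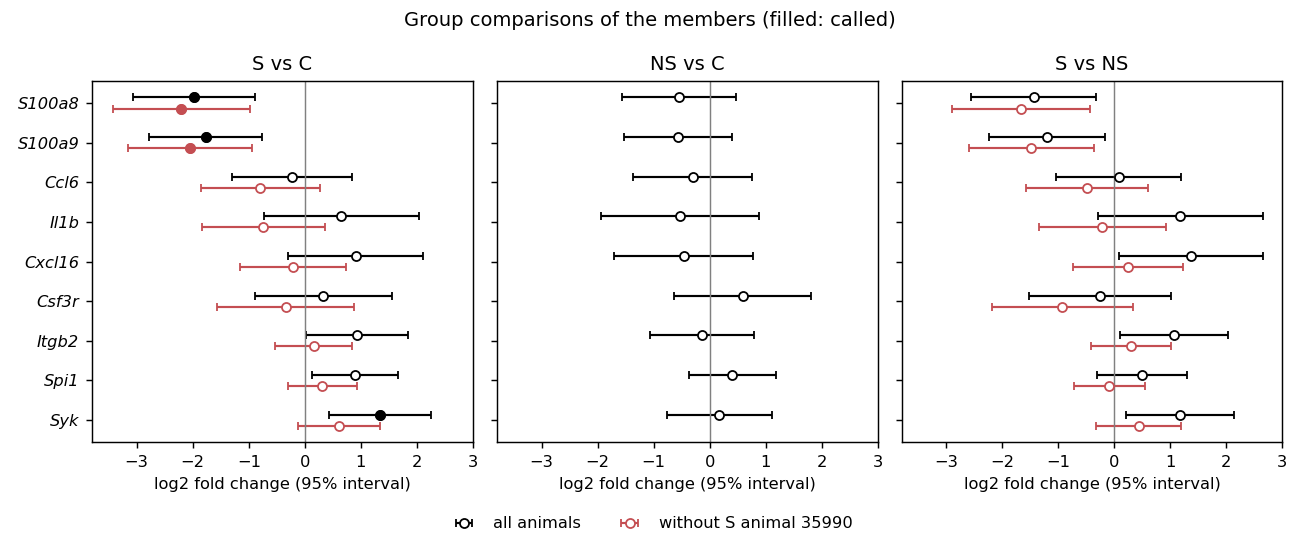
Log2 fold changes of the 9 genes with 95% intervals in each comparison of groups, with all animals (black) and without S animal 35990 (red, in the comparisons that hold it). Filled points are called, which are S100a8, S100a9 and Syk in S vs C with all animals, and S100a8 and S100a9 without 35990.

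In NS vs C, the comparison of diet without steatosis, none of the 9 genes was called by edgeR's quasi-likelihood test, beside 0.0712% of all genes tested. An unadjusted p under 0.05 was found for 0 of the 9, beside 1048 of the 12639 genes tested. DESeq2 called 0 of the 9 as well in this comparison and in S vs NS, beside 53 and 71 of the 12639 genes tested. The log2 fold changes ran from -0.56 for S100a9 (-1.52 to 0.40) to 0.59 for Csf3r (-0.63 to 1.80). The intervals were wide, and a fall of S100a8 by as much as a log2 fold change of -1.56 was within its interval.

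In S vs NS, the comparison of steatosis on the same diet, 0 of the 9 genes were called by edgeR, beside 0.00791% of all genes tested (1 gene). An unadjusted p under 0.05 was found for 5 of the 9, beside 1381 of the 12639 genes tested. These comparisons share the S animals with S vs C, and the C or NS animals with each other. S100a8 had a log2 fold change of -1.44 (-2.56 to -0.33, adjusted p = 0.374) and S100a9 one of -1.21 (-2.24 to -0.18, adjusted p = 0.405). For Cxcl16 it was 1.37 (0.08 to 2.65, adjusted p = 0.432), for Syk 1.17 (0.20 to 2.13, adjusted p = 0.398) and for Itgb2 1.06 (0.11 to 2.02, adjusted p = 0.418). Without 35990 the values of the last 3 genes were 0.25, 0.44 and 0.30, while those of S100a8 and S100a9 were -1.67 and -1.48.

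S animal 35990 had the highest level of the 16 animals in 7 of the 9 genes, against 9.57% of all genes tested. S100a8 and S100a9 were the exceptions, with 35990 at rank 10 of 16 in both. Against the median of the other 4 S animals, 35990 was 8.64-fold higher in Cxcl16, 8.62-fold in Il1b, 5.21-fold in Csf3r, 4.30-fold in Itgb2, 4.09-fold in Syk, 3.68-fold in Spi1 and 2.93-fold in Ccl6. For S100a8 and S100a9 the ratios were 1.60 and 1.76. The median log2 fold change of the 9 genes in S vs C was 0.65 with 35990 and -0.34 without it, beside 0.10 and 0.07 over all genes tested.

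Markers of other cells were also high in this animal. Of 14 Kupffer cell markers, 10 were highest of 16 animals in 35990, and their summed level was 1681 CPM there, against 311 to 1107 CPM in the other S animals. Of 10 pan-leukocyte markers, 7 were highest in 35990, with a sum of 302 CPM against 102 to 222 CPM in the other S animals. Of 8 B cell markers 2 were highest there, with a sum of 15.5 CPM against 8.26 to 13.7 CPM in the other S animals, and of 10 T and NK cell markers 3 were, with a sum of 17.6 CPM against 7.13 to 14.3 CPM. The sums of both lists were the highest of 16 animals in 35990, although C animal 35998 had 17.5 CPM of T and NK cell markers. None of the 5 hepatocyte markers was highest in 35990, and their sum of 25109 CPM was the lowest of all animals. The part of these cells in the levels of the 7 genes was not tested.

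The 6 lists of related myeloid genes held 135 genes, of which 114 were in the table and 103 were tested. In S vs C, 4 (3.88%) were called higher and 2 (1.94%) lower by edgeR, beside 3.09% and 0.965% of all genes tested. The median over the 103 genes was 0.27 with 35990 and -0.09 without it. The higher ones were Cd36, the scavenger receptor and fatty acid translocase (1.18, SE 0.27, adjusted p = 0.0294), Chil1, a chitinase-like protein, Ace, angiotensin-converting enzyme, and Runx1, a haematopoietic transcription factor. The lower ones were Hp, haptoglobin, which hepatocytes also secrete in large amounts (-1.36, SE 0.29, adjusted p = 0.0241), and Cxcl1, a neutrophil-recruiting chemokine.

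Some of these calls rested on a single animal. Ace had a log2 fold change of 3.20 (adjusted p = 0.0521), with 407 counts in 1 S library, and 0.50 without animal 35990, and its call was also lost without 35975 or 36007. Runx1 had 3.29 (adjusted p = 0.0792) and 0.51 without animal 36016, and its call was also lost without any 1 of the 6 C animals. Chil1 had 0 to 7 counts in C and 0 to 978 in S, with its highest level of 119 CPM in the SM2 animal 10880. Cxcl1 had -3.88 (adjusted p = 0.0832), with 2.31 to 48.6 CPM in C and 0.371 to 6.87 CPM in S, and was still called only without 35972, 35990 or 35998. The calls of Cd36, Hp and Chil1 held in all 11 fits.

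By list, 1 of 18 neutrophil granule and surface genes was called higher and 1 lower in S vs C (median 0.01). The other counts were 1 of 16 monocyte genes higher (median 0.56), 1 of 17 recruiting ligands and adhesion genes lower (0.18), 1 of 18 receptors and processing genes higher (0.11), 0 of 22 Syk and integrin signalling genes (0.66) and 1 of 12 Spi1 partners and myeloid transcription factors higher (-0.03). Without 35990 these medians were -0.28, 0.13, -0.21, -0.18, 0.05 and -0.09. Of the Syk and integrin signalling genes, 12 of 22 were highest of 16 animals in 35990. In both NS vs C and S vs NS, 0 of the 103 genes were called by edgeR, beside 0.0712% and 0.00791% of all genes tested. DESeq2 called 0 and 3 of the 103, beside 53 and 71 of the 12639 genes tested. An unadjusted p under 0.05 by edgeR was found for 3 and 19 of the 103, beside 1048 and 1381 of the 12639 genes tested.

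Among cell markers in S vs C, 3 were called, all higher, beside 3.09% of all genes tested. These were 1 of 10 pan-leukocyte, 1 of 14 Kupffer cell and 1 of 8 B cell markers. They were Lcp1, the leukocyte actin-bundling protein L-plastin (1.29, adjusted p = 0.0186), Slc40a1, the iron exporter ferroportin counted among the Kupffer cell markers (1.31, adjusted p = 0.0486), and Cd79b, a chain of the B cell receptor complex (1.83, adjusted p = 0.0554, with 1 to 4 counts in C and 3 to 21 in S). Slc40a1 was not called without C animal 35975, nor Cd79b without 35955, 35975 or 36007. Of 10 pan-leukocyte markers, 9 had a log2 fold change above 0 (median 0.52, and 0.04 without 35990), beside 7305 of the 12639 genes tested. How these markers relate to the fall of S100a8 and S100a9 was not tested. Of 10 T and NK cell markers and 5 hepatocyte markers, 0 were called.

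Ccl6 and Il1b, which were not called between the diet groups, were lower in SM2 than in BW livers. In a fit with group and stock, 3 of the 9 genes were called lower in the 3 SM2 animals than in the 13 BW animals and 0 higher, beside 4.93% and 5.91% of all genes tested (10.8% in both directions). Reads of both stocks were placed on the same assembly and only unique placements were counted. Whether reads of the stocks were placed equally well was not tested, for these or any genes compared between stocks. Ccl6 was 4.23, 1.76 and 1.46 CPM in the SM2 animals of C, NS and S, and 4.10 to 17.9 CPM in BW animals. The SM2 animal was the lowest of its group each time, and the log2 fold change was -1.98 (SE 0.42, adjusted p = 0.0045). This call held in each of 16 fits that left out 1 animal, with -1.84 (adjusted p = 0.0016) without 35990.

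Il1b was 3.84, 1.76 and 2.92 CPM in the SM2 animals of C, NS and S, and 4.61 to 61.7 CPM in BW animals. All SM2 animals were below all BW animals. The log2 fold change was -2.30 (SE 0.66, adjusted p = 0.0261), and -1.85 (adjusted p = 0.00398) without 35990. It was no longer called without SM2 animal 10865 (-2.25, adjusted p = 0.118) or 10880 (-2.003, adjusted p = 0.150).

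Syk was 2.56, 2.27 and 2.44 CPM in the SM2 animals of C, NS and S, and 2.60 to 22.9 CPM in BW animals. The 3 SM2 animals lay close to each other and below every BW animal, by little in the case of 35972. The log2 fold change of -1.14 (SE 0.44, adjusted p = 0.0916) was -0.72 without 10880 and -0.94 without 35990. With sex in the fit and in males alone it was -0.98, under the limit on fold change. The adjusted p was 0.148 with sex in the fit, past its limit as well, and 0.0563 in males alone. It was not called in 9 of 16 fits that left out 1 animal each, which were those without 10865, 10880, 35930, 35963, 35975, 35987, 35990, 35998 or 36007. Il1b, Ccl6 and Syk were the 3 of 9 genes whose SM2 animal was lowest in each of the 3 groups, which was seen in 7.82% of all genes tested.

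Csf3r pointed the other way, with 4.03, 4.41 and 2.92 CPM in the SM2 animals of C, NS and S, and 0.444 to 5.34 CPM in BW animals. Its SM2 animal was highest in C and NS, and second to 35990 in S. The log2 fold change was 1.10 (0.05 to 2.15, adjusted p = 0.150), and 1.49 (0.74 to 2.24, adjusted p = 0.00979), past the limits, without 35990. It was also called with sex in the fit (1.401, adjusted p = 0.0852) and in males alone (adjusted p = 0.0251). S100a8 and S100a9 had -0.25 (-1.39 to 0.89) and -0.49 (-1.54 to 0.56) between the stocks.

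**Figure D3:**
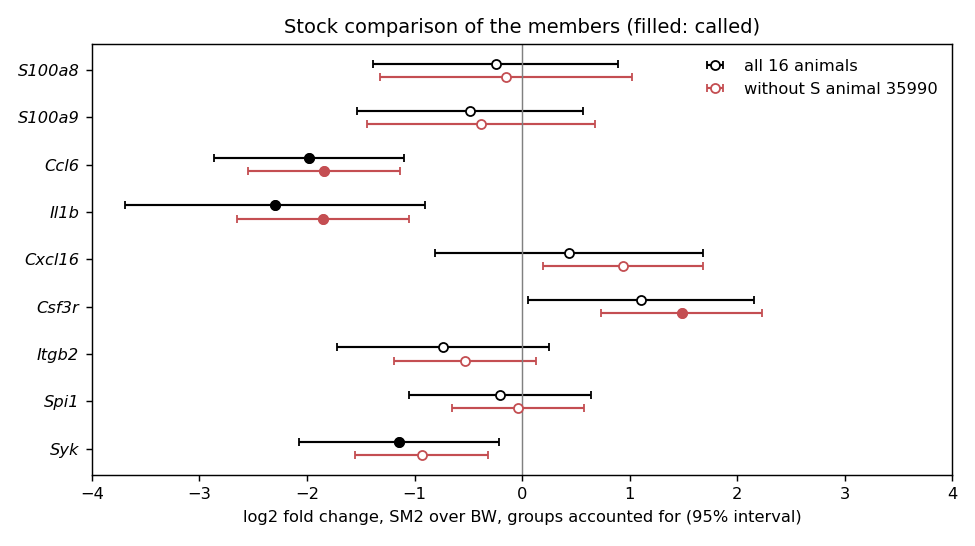
Log2 fold changes of the 9 genes with 95% intervals between 3 SM2 and 13 BW animals, with group in the fit, for all animals (black) and without S animal 35990 (red). Filled points are called, which are Ccl6, Il1b and Syk with all animals, and Ccl6, Il1b and Csf3r without 35990.

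Kupffer cell markers moved with stock as well. Of 14 tested, 4 were called lower in SM2 and 2 higher, beside 4.93% and 5.91% of all genes tested. The lower ones were Vsig4, Marco, Msr1 and Folr2 (receptors of resident macrophages). The higher ones were Cd163 (the haemoglobin scavenger receptor) and Adgre1 (F4/80). The median log2 fold change over the list was -0.83. Cd163 had 144 to 329 counts in SM2 and 1 to 38 in BW animals, and Folr2 had 0 to 3 in SM2 and 4 to 57 in BW animals. Folr2 passed the filter of 0.5 CPM only through BW animals, with at most 0.365 CPM in SM2 animals. The calls of Vsig4 and Marco were lost without 10880, and that of Adgre1 without 10865 or 10876. Of 10 pan-leukocyte markers, 0 were called (median -0.46). Pck1, a gluconeogenic enzyme among the hepatocyte markers, was the 1 of 5 called lower (-1.43, adjusted p = 0.0334), and its call was lost without 10865 or 10880. The part of these cells in the levels of Ccl6, Il1b and Syk was not tested.

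Of the 103 related myeloid genes, 4 (3.88%) were called higher and 7 (6.80%) lower in SM2, beside 5.91% and 4.93% of all genes tested. Lower were Tlr4, the lipopolysaccharide receptor that also senses S100a8 and S100a9 (-1.84, adjusted p = 0.000925), the transcription factors Jun (-2.24), Cebpd (-1.52) and Klf2 (-1.25), the adhesion genes Vcam1 (-1.08) and Selplg (-1.41), and Fpr1, the receptor of formylated peptides. Fpr1 had 0 to 1 counts in the SM2 libraries and 5 to 42 in the BW libraries. Higher were Il1r2, the decoy receptor of interleukin-1 (1.09, adjusted p = 0.0045), Chil1 (2.84), and the cytokine genes Il1a and Csf3, which had 3 to 9 and 1 to 9 counts in SM2 libraries and at most 3 and 1 in BW libraries. Jun, Cebpd, Klf2, Vcam1, Selplg and Chil1 were each lost when at least 1 SM2 animal was left out, and Il1r2 when 10876 was. Without 10880, Chil1 had 1.70, and without 35990 it had 4.36.

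Over the 16 animals, some pairs of the 9 genes varied together. Of the 36 pairs, 28 had a positive Pearson's r of log2 CPM, and 9 passed an adjusted p of 0.05 by a permutation test, of which 3 also did so by Spearman's rho. S100a8 and S100a9 had r = 0.95 and rho = 0.97 (adjusted p = 0.00036 for both, the smallest that 100000 permutations give), and r = 0.94 without the 2 animals farthest from the median of S100a8. Il1b and Ccl6 had r = 0.87 (permutation, adjusted p = 0.00054) and rho = 0.90 (adjusted p = 0.00072), and r = 0.84 without 2 animals. Syk and Itgb2 had r = 0.85 (permutation, adjusted p = 0.0076) and rho = 0.74 (adjusted p = 0.020), and r = 0.69 without 2 animals. These pairs were not separate sets, as Il1b also passed by r with Syk and with Itgb2 (0.72 and 0.71, permutation, adjusted p = 0.018 for both). The remaining pairs that passed by r were Syk with Spi1, Itgb2 with Spi1, Cxcl16 with Csf3r and Cxcl16 with Spi1.

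Within the 13 BW animals the r of S100a8 with S100a9, Il1b with Ccl6 and Syk with Itgb2 was 0.95, 0.78 and 0.84. No pair of S100a8 or S100a9 with another of the genes passed in all 16 animals, and in BW animals S100a9 with Ccl6 did (r = 0.70, permutation, adjusted p = 0.037). Both were at a negative r with Syk, Itgb2 and Spi1, between -0.27 and -0.11, none of which passed, and after the group means were removed these 6 values were positive, between 0.08 and 0.32. The animals of the pairs share group, stock and library. With the group means removed, r was 0.91, 0.90 and 0.82 for the 3 pairs that passed by both measures.

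**Figure D4:**
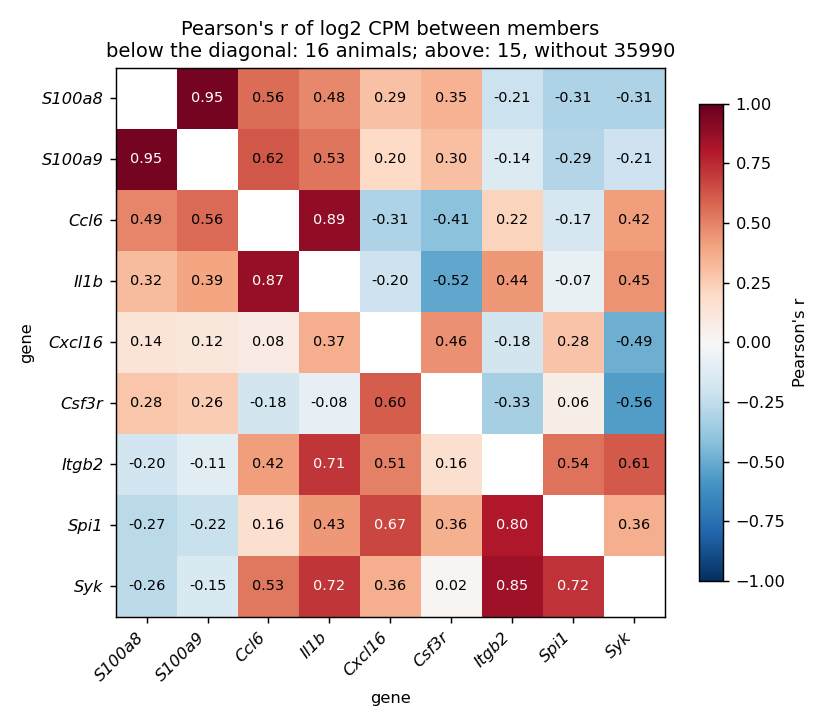
Pearson's r of log2 CPM between the 9 genes, over 16 animals below the diagonal and over the 15 animals other than S animal 35990 above it, with colour from -1 (blue) to 1 (red). S100a8 with S100a9 keeps 0.95 on both sides, while Syk with Itgb2 goes from 0.85 to 0.61 and Itgb2 with Spi1 from 0.80 to 0.54.

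The genes most like the mean log2 level of S100a8 and S100a9 over 16 animals were Fbp1, a gluconeogenic enzyme of hepatocytes (r = 0.87), Mrps36, a small mitochondrial protein (r = 0.84), and Magoh, a subunit of the exon junction complex (r = 0.84). None of these 3 is a leukocyte marker, and without 35990 the values were 0.88, 0.84 and 0.84. The genes most like the mean of Itgb2, Spi1, Syk and Csf3r were Laptm5, a lysosomal protein of leukocytes (r = 0.93), Myo1f, a myosin of leukocytes (r = 0.91), and Slc11a1, the phagosomal metal transporter of macrophages (r = 0.89). For these, r was 0.71, 0.79 and 0.73 without 35990. They were picked as the highest among all genes tested and are given as a description.

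The Pc index of the study, which sets the correlations of a gene with every other gene in 1 group against those in another, was calculated on the deposited counts, and a Pc below -0.2 was taken as the limit. The scale that the study used for it is not stated in the sources used here. For S vs C, the study's number of genes equals the 13434 on CPM by total count, against 13431 on the deposited counts. For NS vs C the study's number differs from the 13336 on the deposited counts. For S vs NS it was lower than the 13385 on the deposited counts. The deposited counts thus gave the study's number in none of these comparisons. On the deposited counts, 0 of the 9 genes were below the limit of -0.2 in S vs C, beside 2.6% of all genes. On CPM by total count 2 genes were, Spi1 (-0.26) and Cxcl16 (-0.201), beside 6.05%. The values on the deposited counts ran from -0.17 for Spi1 to 0.23 for Ccl6, and without 35990 from -0.07 for Spi1 to 0.27 for Csf3r. In NS vs C, 1 was below it, beside 2.92%, which was S100a9 with a Pc of -0.25, and S100a8 was just above it at -0.20. In S vs NS, 0 were below it, beside 3.53%. The count in NS vs C was 0 in BW animals alone and between 0 and 3 when 1 animal was left out.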

How the data were processed

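Liver RNA of 16 deer mice was sequenced. Per the authors, STAR 2.7.2 placed read pairs on HU_Pman_2.1 and featureCounts made the raw counts per gene, which were deposited by symbol. Strand setting and symbol conversion are not given in the sources used here, so close paralogs such as S100a8 and S100a9 and overlapping genes are uncertain. Groups came from the diet and steatosis labels. edgeR 4.0.16 in R 4.3.3 fitted all 16 animals with TMM, and stock was tested with group as a covariate. The tests were tried on simulated data. Correlations used log2 CPM with a prior count of 2. Animals were taken as biological replicates, as the labels say, and counting error is largest for genes of few counts. Members and lists were chosen with earlier results of these data known. Named were all members, listed genes called in any comparison, the most abundant gene of each list, and the 3 genes most like 2 mean profiles. Alternatives were DESeq2 1.42.0, RLE, other filters, limits, covariates and animals, and Tbp ratios. RefSeq's gene table is of another assembly, so no positions or sequences are given.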

Additional observations from a re-analysis of the deposited data

Results flagged for a closer look

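In each group of 5 or 6 animals, the highest and lowest level of each of the 9 genes was set against its neighbour, and a level was marked where its gap to the nearest other animal took more of the group's range than Dixon's 95% critical value allows. Of 27 groups, 6 were marked. Chance marks about 1 in 20 only for normal values in independent groups. Here the CPM were taken without logs and the groups of the 9 genes share animals, so the count of marks is given as a description. In S, animal 35990 was marked in 5 genes, with 61.7 CPM of Il1b, 38.2 CPM of Cxcl16, 22.9 CPM of Syk, 42.1 CPM of Itgb2 and 26.0 CPM of Spi1. In C, animal 35998 was marked with 17.2 CPM of Itgb2. The log2 fold changes without 35990 stand beside those of S vs C.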

How the results depend on the processing

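Of 765 values of single genes under the alternatives, 699 kept their direction and side of the limits, 29 were no longer past them, 9 came to pass them and 28 changed sign, none of the 6 called values being among the last. In S vs C, the number of the 9 genes called was 0 with sex as a covariate or with males alone, and 2 to 5 with 1 animal left out. It was 4 in BW animals alone, where Spi1 was added. Over all genes, 768 of 12639 were called with sex as a covariate and 679 of 12492 with males alone. In BW animals alone 610 of 12333 were, and 192 to 573 with 1 animal left out, beside 513 of 12639 in the main fit. The related myeloid genes called in S vs C numbered 3 at an adjusted p of 0.05, 13 with no limit on fold change and 3 to 8 with 1 animal left out. In S vs NS they numbered 1 with stock or sex as a covariate or BW animals alone, 3 by DESeq2 and 0 to 1 with 1 animal left out. Over all genes the numbers were 17 with stock, 191 with sex, 18 in BW animals alone, 71 by DESeq2 and 1 to 15 with 1 animal left out. The genes called in SM2 vs BW numbered 1 to 3 with 1 animal left out. The genes with a Pc below -0.2 numbered, in S vs C, 2 on CPM by total count, 1 on log2 CPM and 0 to 1 with 1 animal left out, and in NS vs C 3 on log2 CPM, 0 in BW animals and 0 to 3 with 1 animal left out. The pairs passing numbered 3 by Spearman's rho and 8 in BW animals, both chosen after seeing the data. The cause was not tested.

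With sex as a covariate and with males alone, log2 fold changes of genes that were not called changed sign. In S vs C and S vs NS, both fits take S from the males 10880 (SM2) and 36016 alone. In S vs C they were -1.16 in both fits for Il1b, -0.32 in both for Itgb2 and -0.0865 and -0.0864 for Spi1. In S vs NS they were -0.64 and -0.63 for Il1b, -0.68 in both for Ccl6, -0.18 in both for Itgb2 and -0.49 in both for Spi1. In SM2 vs BW, Spi1 had 0.11 in both. With 1 animal left out, values that changed sign ran in S vs C from -0.74 to 0.93 for Il1b, -0.80 to 0.0452 for Ccl6, -0.21 to 1.15 for Cxcl16 and -0.34 to 0.78 for Csf3r, and in NS vs C from -0.28 to 0.19 for Itgb2. In S vs NS they ran from -0.22 to 1.71 for Il1b, -0.49 to 0.36 for Ccl6, -0.93 to 0.0031 for Csf3r and -0.0878 to 0.68 for Spi1, and in SM2 vs BW from -0.75 to 0.29 for S100a8 and -0.49 to 0.20 for Spi1.

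With 4 to 56 counts of Csf3r, depth limits its values most. The 3 females are all in S, so sex and steatosis cannot be told apart in females. No paired analysis was possible because the replicate numbers were given in accession order and pair no animals.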

Other observations

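The most abundant gene of each list was read beside the 9 genes. Hp led the neutrophil list with 12302 ± 5790 CPM (SD, n = 16) and Fga, a fibrinogen chain, the recruiting list with 10118 ± 2495 CPM, both genes that hepatocytes express. Nr4a1, a transcription factor of patrolling monocytes that is also an immediate early gene, led the monocyte list and ran from 4.69 CPM in C animal 35998 to 519 CPM in S animal 35990. Jun, the leading myeloid transcription factor gene and likewise immediate early, ran from 12.6 CPM in C animal 10876 to 233 CPM in 35990. Cd36 was also highest in 35990, at 202 CPM, whereas Tln1 (talin, which activates integrins) and Lcp1 were highest in S animal 36016, at 265 and 156 CPM, and Slc40a1 in S animal 35955, at 508 CPM. The leading genes of other cell types were at 4.85 ± 1.54 CPM for Bank1 (B cells), 2.75 ± 1.18 CPM for Lck (T and NK cells), 5.06 ± 2.40 CPM for Alas2 (erythroid cells), 1.13 ± 0.79 CPM for Itga2b (platelets) and 13931 ± 6614 CPM for Apoa1 (hepatocytes), over 16 animals. Among erythroid and platelet genes, 4 of 6 in each list had 3 counts or fewer in every animal.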
